A study of Mus musculus with 7 samples.

Results

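Dendritic cell transcripts were examined in bulk RNA from flow-sorted innate lymphoid cells of type 2 (ILC2s), through 10 genes that mark dendritic cells out of the 55335 genes in the deposited tables. The 10 genes were picked by symbol from a list drawn up after counts of these libraries had been seen, so their values are given as a description without a test. They fall into 6 markers of conventional dendritic cells (Zbtb46, Flt3, Itgax, Xcr1, Clec9a and Cd209a), 3 markers of mature migratory dendritic cells (Il12b, Cd83 and Fscn1) and 1 marker of plasmacytoid dendritic cells (Siglech). All 10 passed the filter on low counts, which kept 17015 genes.

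The 7 libraries comprised 3 of naive mouse hearts and 4 of cardiac allografts, which were BALB/c hearts collected 7 days after transplantation into C57BL/6 mice and were undergoing acute rejection. ILC2s had been sorted by flow cytometry as CD45-positive, lineage-negative and ST2-positive cells, and each library pooled cells of 4 to 7 hearts. The labels named no transgene, deletion or drug in either group, and gave neither the strain of the naive hearts nor the antibodies of the lineage stain. The comparison sets graft-infiltrating ILC2s against those of hearts that were not transplanted.

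Dendritic cells capture antigen, carry it to lymph nodes and present it to T cells. Conventional type 1 cells take up dead cells and present to CD8 T cells, conventional type 2 cells mainly prime CD4 T cells, and plasmacytoid cells secrete type I interferon. On maturation, conventional cells switch on a migratory programme with CCR7, fascin and CD83. Several of these genes are not exclusive to dendritic cells: Cd83 is also induced in activated lymphocytes, Itgax is found on macrophages and natural killer cells, and Zbtb46 is found in endothelium. ILC2s and dendritic cells are known to interact, since ILC2s secrete GM-CSF, a growth factor for dendritic cells.

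Total counts lay between 29107326 and 53044907 per library, so that a count of 0 allowed up to 3 counts, or 0.0566 to 0.103 CPM (counts scaled to a common total count per library). These limits cover counting error only. Naive replicate 2 stood apart from the other libraries: 12 ILC2 markers, among them Gata3 and Il1rl1, summed to 1150 CPM there, against 11200 and 15000 CPM in naive replicates 1 and 3 and 11500 to 12200 CPM in the allografts. Mitochondrial transcripts made up 26.5% of its counts and 2.04% to 3.11% in the other 6 libraries. Naive replicates 1 and 3 in turn had few detected genes (15820 and 13864, against 19235 to 21354 in the allografts and 20254 in naive replicate 2). Of all genes tested, 15.2% had at most 3 counts in both of these libraries, and 7.68% had at most 3 counts in both and more than 3 in every allograft. Most member results below, and the calls within most lists, are therefore given with and without naive replicate 2. Most values of single list genes are given with all 7 libraries only.

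All 10 dendritic cell genes had more than 3 counts in every allograft library. In the naive libraries, 2 of the 10 exceeded 3 counts in replicate 1 (Xcr1 and Cd83), 4 in replicate 3 (these and Zbtb46 and Fscn1) and 7 in replicate 2. Every allograft exceeded every naive library for 6 of the 10 genes (Zbtb46, Flt3, Itgax, Clec9a, Cd83 and Il12b), where 12.5% of all tested genes did so. Without naive replicate 2 this held for 8 of 10, with Cd209a and Siglech added, where 21% of all tested genes did so. Because the genes were chosen with these counts in view, nothing is read from either share. The median log2 fold change, allograft over naive, was 3.31 over the 10 genes and -0.01 over all genes tested. Without naive replicate 2 it was 6.08 over the 10 genes and 0.23 over all genes, with genes at 0 counts in the naive libraries set to their lower bounds. In pooled RNA, fewer cells of a type and less RNA per cell cannot be told apart.

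**Figure D1:**
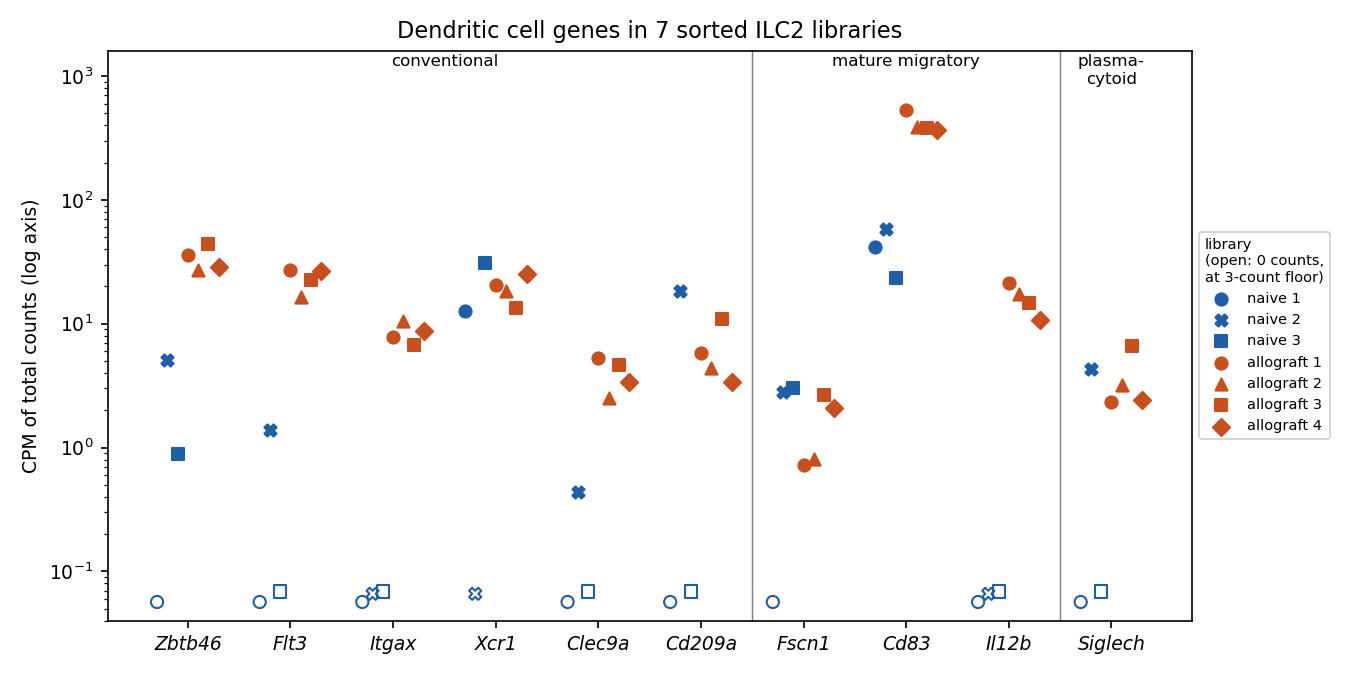
CPM (log axis) of the 10 dendritic cell genes in each library, naive in blue and allograft in orange. An open symbol marks 0 counts and is drawn at the level of 3 counts. All 4 allografts lie above 0 for each gene, with the widest spread for Fscn1, Siglech and Cd209a. Naive libraries are often at 0, and Xcr1, Cd209a, Fscn1 and Siglech overlap between the groups.

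Among the markers shared by conventional dendritic cells, Zbtb46 (ENSMUSG00000027583), a zinc finger transcription factor of this lineage, had 36.0, 27.2, 44.3 and 28.7 CPM in allograft replicates 1 to 4. It had 0, 5.06 and 0.895 CPM in naive replicates 1 to 3. The lowest allograft was thus above the highest naive library, which was naive replicate 2. The fitted log2 fold change was 3.59 (SE 1.69), or 6.18 (SE 1.76) without naive replicate 2.

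Flt3 (ENSMUSG00000042817), the receptor tyrosine kinase whose ligand drives dendritic cell development, had 27.2, 16.3, 22.5 and 26.7 CPM in the allografts. In the naive libraries it was counted only in replicate 2, at 1.38 CPM, and had 0 counts in replicates 1 and 3. The groups did not overlap, with a log2 fold change of 5.08 (SE 2.15). Against naive replicates 1 and 3 alone, the mean of the allografts was at least 370-fold higher, a bound set by 3 counts per naive library.

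Itgax (ENSMUSG00000030789), which encodes the integrin CD11c, had 0 counts in all 3 naive libraries. The allografts had 347, 342, 275 and 254 counts, or 7.88, 10.6, 6.73 and 8.73 CPM. Their mean of 8.47 ± 1.61 CPM (SD, n = 4) was at least 133-fold above the limit of 3 counts per naive library. This gene had among the smallest spreads of the set, with the highest allograft 1.57 times the lowest.

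The 2 type 1 markers showed different patterns. Xcr1 (ENSMUSG00000060509), the chemokine receptor by which type 1 cells find cells that secrete XCL1, had 20.4, 18.3, 13.5 and 25.4 CPM in the allografts and 12.7, 0 and 30.9 CPM in the naive libraries. Naive replicate 3 was the highest of all 7 libraries and naive replicate 1 lay just below the lowest allograft, so the groups overlapped. The log2 fold change was 0.38 (SE 1.54), and -0.23 (SE 0.52) without naive replicate 2.

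Clec9a (ENSMUSG00000046080), a lectin receptor of type 1 cells for actin exposed by dead cells, had 5.27, 2.53, 4.6 and 3.40 CPM in the allografts. Its naive libraries held 0 counts in replicates 1 and 3 and 20 counts, or 0.440 CPM, in replicate 2. The groups did not overlap, and the log2 fold change was 4.17 (SE 2.12). Without naive replicate 2 the allografts were at least 63-fold higher. Clec9a shares exon bases on the same strand with Clec1b, a lectin gene of platelets, which had 200 counts in naive replicate 2 and at most 2 in any other library. How the counting split reads between these genes is not given in the sources used here.

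Per length, Xcr1 exceeded Clec9a in every allograft. The ratio of their FPKM (fragments scaled to gene length and depth) was 2.86, 5.40, 2.18 and 5.55 in allograft replicates 1 to 4. In naive replicates 1 and 3 Xcr1 was present at 2.48 and 6.13 FPKM while Clec9a was listed at 0. Naive replicate 2 showed the opposite, with Clec9a at 0.120 FPKM and Xcr1 listed at 0. Thus no naive library had counts for both type 1 markers, and every allograft did.

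Cd209a (ENSMUSG00000031494), a DC-SIGN family lectin of type 2 and monocyte-derived dendritic cells, was highest in naive replicate 2, at 18.2 CPM. It had 0 counts in naive replicates 1 and 3 and 5.84, 4.41, 10.9 and 3.40 CPM in the allografts. The single naive library with a signal lay above all 4 allografts, so the log2 fold change was -0.56 (SE 2.25). Without that library the allografts were at least 97.9-fold higher.

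Promoter sequences are shown for 3 conventional and mature genes with contrasting patterns: Il12b and Itgax, which had no counts in any naive library, and Xcr1, which did. Each is the 250 bases before the gene's start, 5′ to 3′ on the strand of the gene, from RefSeq on build GRCm38.p6, the assembly also called mm10. Capitals mark matches on either strand to the ETS core of PU.1 sites (GAGGAA) or to an AP-1 site (TGANTCA).
Il12b (chr11:44399813-44400062, + strand): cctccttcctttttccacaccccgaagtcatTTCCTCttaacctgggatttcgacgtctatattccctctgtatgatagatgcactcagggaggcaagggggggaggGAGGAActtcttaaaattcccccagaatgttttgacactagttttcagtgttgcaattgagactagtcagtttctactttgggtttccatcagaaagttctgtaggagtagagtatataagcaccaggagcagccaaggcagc
Itgax (chr7:128129300-128129549, + strand): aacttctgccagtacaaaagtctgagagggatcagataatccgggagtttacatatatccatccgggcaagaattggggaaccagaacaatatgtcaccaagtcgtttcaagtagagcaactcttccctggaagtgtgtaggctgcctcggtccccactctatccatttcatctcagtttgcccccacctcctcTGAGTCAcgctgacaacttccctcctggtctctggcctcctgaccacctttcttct
Xcr1 (chr9:123862030-123862279, - strand): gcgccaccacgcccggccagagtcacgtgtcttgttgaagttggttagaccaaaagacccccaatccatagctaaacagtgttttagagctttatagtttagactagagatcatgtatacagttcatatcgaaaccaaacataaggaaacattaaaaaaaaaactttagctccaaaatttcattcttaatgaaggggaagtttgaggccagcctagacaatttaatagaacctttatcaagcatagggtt

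The ETS core occurred at 2 places in the Il12b window, 214 to 219 and 138 to 143 bases before the start, and the AP-1 site in the Itgax window 50 to 56 bases before the start. Neither was found in the Xcr1 window. Promoters were listed for 9 of the 10 genes. The ETS core was found in 1 of the 9 windows and in 23.1% of 27025 windows of the same length, and the AP-1 site in 2 of the 9 and 6.87% of all. The other window with an AP-1 site was that of Zbtb46, a gene with counts in naive replicates 2 and 3. That window (chr2:181424389-181424638, - strand) lies inside the gene as GENCODE M21 places it (chr2:181387762-181459426). The kappa B consensus was found in 0 of the 9 and in 7.01% of all windows. Both strands were searched, and the AP-1 site reads the same on either. Such matches are letters in a window and not measured binding.

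Of the mature migratory markers, Cd83 (ENSMUSG00000015396), a surface protein that stabilises class II molecules and CD86, was by far the most abundant member. It had 531, 385, 383 and 369 CPM in allograft replicates 1 to 4 and 42.0, 58.5 and 23.2 CPM in naive replicates 1 to 3. It was the only member present in all 7 libraries, and every allograft was more than 6 times the highest naive library. The log2 fold change was 3.03 (SE 0.51), and 3.64 (SE 0.37) without naive replicate 2, the smallest standard errors of the set.

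Il12b (ENSMUSG00000004296), the p40 subunit shared by interleukins 12 and 23, had 0 counts in all 3 naive libraries. Allograft replicates 1 to 4 had 939, 565, 595 and 311 counts, or 21.3, 17.4, 14.6 and 10.7 CPM. The mean of 16 ± 4.5 CPM (SD, n = 4) was at least 251-fold above the limit of 3 counts per naive library. Allograft replicate 1 was the highest and replicate 4 the lowest, by a factor of 2.00. The partner subunits were scarce in the same libraries: Il12a, the p35 subunit of interleukin 12, had 1.09, 1.42, 0 and 0.515 CPM, and Il23a, the p19 subunit of interleukin 23, had 0.859 CPM in allograft replicate 4 and 0 counts in the other allografts.

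Fscn1 (ENSMUSG00000029581), the actin-bundling protein fascin of the long processes of mature dendritic cells, did not follow Cd83 and Il12b. It had 0.727, 0.802, 2.64 and 2.10 CPM in the allografts and 0, 2.79 and 3.05 CPM in the naive libraries, so that naive replicates 2 and 3 lay above all 4 allografts. The log2 fold change was -0.64 (SE 1.67), and -0.04 (SE 1.83) without naive replicate 2. In FPKM, Cd83 exceeded Fscn1 869, 571, 173 and 208 times in allograft replicates 1 to 4.

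Siglech (ENSMUSG00000051504), a sialic acid-binding receptor of plasmacytoid dendritic cells and microglia, had 2.34, 3.21, 6.56 and 2.40 CPM in the allografts. In the naive libraries it was at 4.29 CPM in replicate 2 and at 0 counts in replicates 1 and 3. The groups overlapped through naive replicate 2 alone. The log2 fold change was 0.76 (SE 2.19), and without that library the allografts were at least 57.9-fold higher.

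**Figure D2:**
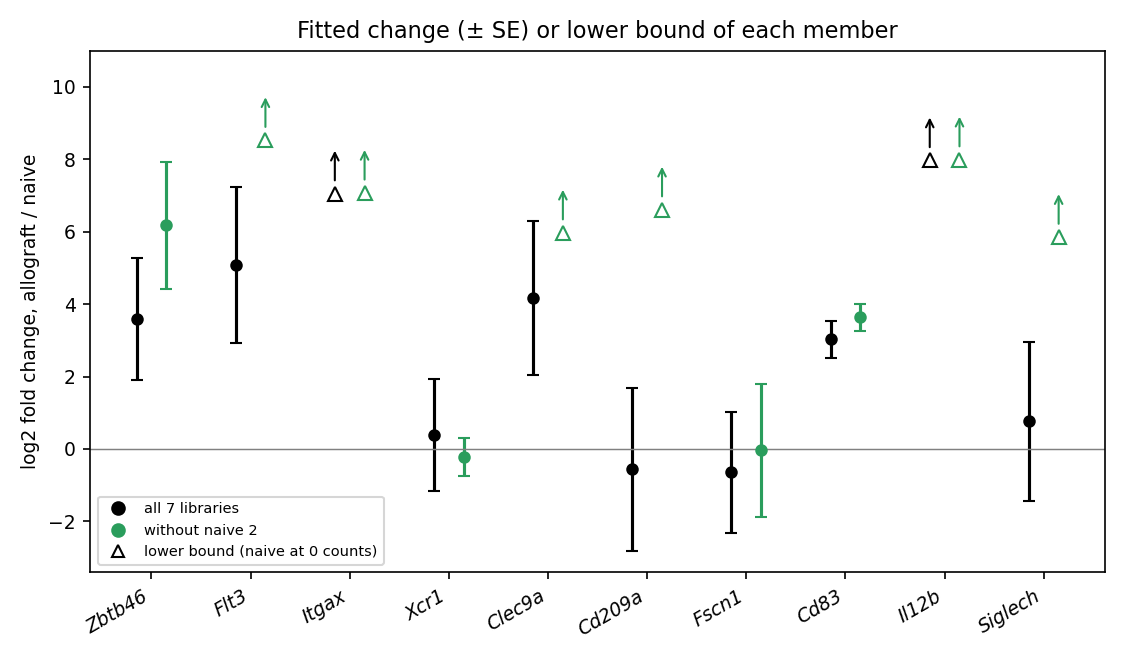
Log2 fold change, allograft over naive, of each dendritic cell gene with all 7 libraries (black) and without naive replicate 2 (green). Points are fitted values with standard errors, and triangles with arrows are lower bounds where all naive libraries used had 0 counts. Xcr1 and Fscn1 stay near 0 in both, whereas Cd209a and Siglech leave 0 only without naive replicate 2.

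Naive replicate 2 carried the naive signal of Cd209a, Siglech, Flt3 and Clec9a, and most of that of Zbtb46. Beside this, that library had little RNA of ILC2 genes, with Il1rl1 at 6.79 CPM and Gata3 at 34.8 CPM, and much of genes of other tissues. Klk1, a kallikrein of the plasmacytoid list that is also abundant in kidney, had 3490 CPM there and 56.5 to 96.6 CPM in the allografts. In naive replicates 1 and 3 it had 3.47 and 302 CPM. Atp1b1, a sodium pump subunit on the same list, had 1140 CPM in naive replicate 2 against 21.1 to 24.0 CPM in the allografts. In naive replicates 1 and 3 it had 10.5 and 69.1 CPM. Naive replicate 3 was thus also above every allograft for both genes. The part of such RNA in the dendritic cell counts of naive replicates 2 and 3 was not tested.

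Levels of different genes were compared per length within the allografts. Cd83 had 140 ± 25 FPKM (SD, n = 4), and did not overlap any other member. In each allograft it was above the ILC2 marker Il1rl1 (65.2 to 94.9 FPKM), and it was above Gata3 (154 to 191 FPKM) in replicate 1 and below it in the other 3. Il12b followed at 7.03 ± 1.96 FPKM and exceeded Xcr1 in 3 of 4 allografts. Xcr1 (3.76 ± 0.952 FPKM), Zbtb46 (3.46 ± 0.801), Cd209a (3.34 ± 1.83) and Flt3 (3.26 ± 0.703) overlapped with one another and cannot be ranked. Itgax, at 1.53 ± 0.291 FPKM, lay below Flt3 in all 4 without overlap. Its range (1.22 to 1.9 FPKM) did overlap that of Cd209a (1.84 to 5.97 FPKM). Clec9a (1.03 ± 0.319 FPKM) and Siglech (0.920 ± 0.515) could not be ranked against each other, and Fscn1 was lowest at 0.444 ± 0.271 FPKM. Among genes listed above 0, Cd83 stood above 97.4% to 98.2% of genes in each allograft and Itgax above 42.1% to 52.7%.

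**Figure D3:**
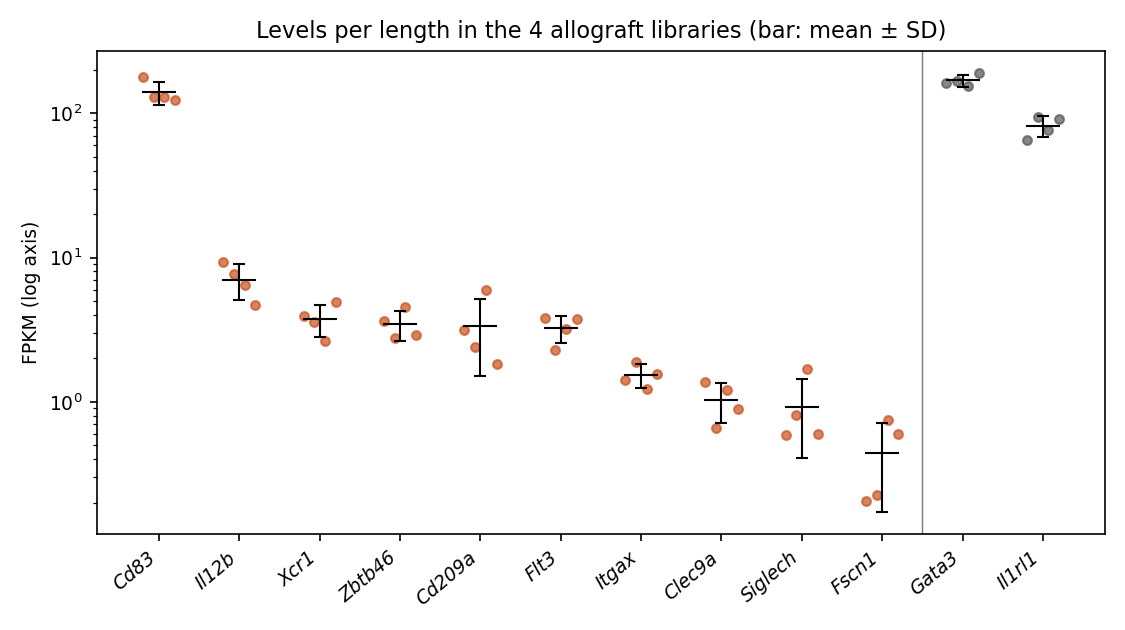
FPKM (log axis) of the 10 dendritic cell genes and of the ILC2 markers Gata3 and Il1rl1 in the 4 allograft libraries, with points for libraries and bars for mean and SD. Cd83 lies within the range of the ILC2 markers, and the other 9 genes have means between 0.444 and 7.03 FPKM.

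The allografts did not rank alike for all members. Replicates 1 and 3 were each the highest for 4 of the 10 genes, and replicates 2 and 4 for 1 each. Replicate 3 was highest for Zbtb46, Cd209a, Siglech and Fscn1, and lowest for Xcr1 and Itgax. Replicate 1 was highest for Flt3, Clec9a, Cd83 and Il12b. The spread among allografts was narrow for Cd83, Itgax, Flt3 and Zbtb46, with coefficients of variation of 18.3%, 19.0%, 21.8% and 23.0%. It was wide for Cd209a, Siglech and Fscn1, at 54.2%, 54.9% and 60.9%.

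Wider lists of dendritic cell genes, which exclude the 10 members, were read from the same fit over all genes. With edgeR's quasi-likelihood test and Benjamini-Hochberg adjustment, 0 of the 131 list genes tested (dendritic cell lists and lists of other cells together) passed an adjusted p of 0.05, and 30 had an unadjusted p under 0.05. Over all 17015 genes, 0.0353% passed and 10.3% had an unadjusted p under 0.05. DESeq2 called 16 of 146 list genes and 1227 of all 28138 genes. These totals hold all genes with at least 1 count in any library, including any that DESeq2 gave no adjusted p. On log2(FPKM + 0.1), limma called 13 of 131 list genes and 201 of all 17015. With naive replicate 2 left out, edgeR called 25 of 139 list identifiers (Itgam has 2), all higher in allografts. Of all tested genes, 3.1% then passed in either direction and 3% as higher. Of these 25, 20 had at most 3 counts in both naive replicates 1 and 3. The lists were drawn up with earlier results of these data known. Nothing is therefore read from these shares or from the shares of single lists below.

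Over all 17015 genes tested, 8408 had a positive log2 fold change. The type 1 list held 12 genes, of which 9 had a positive log2 fold change, with a median of 2.63. Every allograft exceeded every naive library for 8 of the 12 genes of this list, for 2 of 11 of the shared list, 5 of 11 of the type 2 list, 7 of 22 of the mature migratory list and 4 of 16 of the plasmacytoid list, where 12.5% of all tested genes did so. Irf8, the transcription factor required for type 1 cells, had 89.4, 84.2, 72.1 and 93.3 CPM in the allografts and 10.6, 15.8 and 25.5 CPM in the naive libraries, with a fitted difference of 2.07 on the log2 scale (SE 0.41, adjusted p = 0.144). Itgae, which encodes the CD103 integrin of type 1 cells and tissue lymphocytes, had 22.1 to 31.2 CPM in the allografts and at most 0.154 CPM in naive libraries (log2 fold change 8.47, SE 1.83, adjusted p = 0.144). Gcsam, a signalling adaptor first described in germinal centre B cells, had 0 counts in the naive libraries and was at least 113-fold higher (adjusted p = 0.144). Leaving out naive replicate 2, 5 of the 12 passed. These were Batf3, Cadm1, Itgae, Gcsam and Ifi205, named after their values were seen, and all 5 had at most 3 counts in naive replicates 1 and 3. The adjusted p of Irf8 was then 0.0570. In naive replicate 2 Cadm1 had 21.1 CPM, above the 4.75 to 13.7 CPM of the allografts. With all 7 libraries its log2 fold change was -0.16 (adjusted p = 0.995). Plpp1 and Tlr3, also named after their values were seen, were negative there too, at -5.15 and -1.1. Both were highest in naive replicate 2, at 272 and 8.73 CPM. Over the whole list that library held 330 CPM, more than any allograft (243 to 275 CPM). Naive replicates 1 and 3 were lower, at 48.3 and 37.8 CPM. Medians of the type 1, shared, type 2, mature migratory and plasmacytoid lists without naive replicate 2 were 4.70, 1.18, 4.95, 1.20 and 0.73. The median over all genes was 0.23, and genes at the naive floor were set to their lower bounds. Every allograft then exceeded both remaining naive libraries for 9 of 12, 4 of 12, 7 of 11, 10 of 22 and 6 of 16 genes, in the same order. Over all tested genes this share was 21%.

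The type 2 list had 11 tested genes, 7 of them with a positive log2 fold change, and a median of 1.54. In sum the list was not higher in the allografts, at 409 to 437 CPM against 325, 568 and 1040 CPM in naive replicates 1 to 3. Irf4, the transcription factor of type 2 cells and of activated lymphocytes, had 45.5, 56.8, 41.5 and 55.8 CPM in the allografts and 0 to 3.17 CPM in the naive libraries (log2 fold change 4.93, SE 1.5, adjusted p = 0.306). Klf4, a zinc finger factor of type 2 and myeloid cells, was at 899 CPM in naive replicate 3 and at 58.8 to 106 CPM in the other 6 libraries (log2 fold change -2.29, SE 0.80, adjusted p = 0.344). Epcam, an epithelial adhesion molecule of Langerhans cells, had 399 CPM in naive replicate 2 and 2.22 to 29.3 CPM in the other 6 libraries (adjusted p = 0.434). Ltb4r1, a leukotriene B4 receptor, had the highest median on this list, 144 FPKM in the allografts (adjusted p = 0.802). When naive replicate 2 was left out, Clec10a, Mgl2, Cfp and Cd209d passed, again named after their values were seen. Each had at most 3 counts in naive replicates 1 and 3.

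Of the shared conventional list, 11 genes were tested and 6 had a positive log2 fold change (median 0.43). Jaml, a junctional adhesion molecule, had 33.8, 41.7, 38.3 and 25.6 CPM in the allografts and 1.17, 1.43 and 0 CPM in the naive libraries (log2 fold change 4.99, SE 1.51, adjusted p = 0.306). Ass1, argininosuccinate synthase, had 38.0 to 70.4 CPM in the allografts and 41.1 to 171 CPM in the naive libraries (log2 fold change -1.48, adjusted p = 0.424). Traf1, a signalling adaptor of tumour necrosis factor receptors that lymphocytes also induce, had 686 to 781 CPM against 12.9 to 425 CPM (log2 fold change 1.80, adjusted p = 0.564). Cbfa2t3, a transcriptional corepressor named after its value was seen, was the 1 gene of this list to pass without naive replicate 2.

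The mature migratory list had 22 tested genes, of which 15 had a positive log2 fold change. Their median of 0.37 was far below the value of Cd83. Ccr7, the receptor that guides cells to lymph nodes, had 269, 198, 247 and 200 CPM in the allografts and 5.37, 13.2 and 29.2 CPM in the naive libraries (log2 fold change 3.62, SE 0.62, adjusted p = 0.144). The CCR4 ligand Ccl17 had 242, 247, 282 and 210 CPM against 0, 6.11 and 10.2 CPM (log2 fold change 5.21, SE 1.66, adjusted p = 0.341), and at a median of 412 FPKM it was the highest of the list. Il4i1, an amino acid oxidase, had 0 counts in the naive libraries and 0.386 to 3.68 CPM in the allografts, a difference of at least 32.8-fold (adjusted p = 0.155). Ccl22, another CCR4 ligand, and Cd40, a costimulatory receptor, both named after their values were seen, passed without naive replicate 2. Both had at most 3 counts in naive replicates 1 and 3. In naive replicate 2 Ccl22 had 1.43 CPM, below the 36.3 to 69.4 CPM of the allografts. Cd40 had 2.66 CPM there, above the 1.22 to 2.1 CPM of the allografts. With all 7 libraries its log2 fold change was 0.32 (adjusted p = 0.988).

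The plasmacytoid list had 16 tested genes, 8 of them with a positive log2 fold change, and a median of -0.04. Bst2, an interferon-induced surface antigen, had 65.2 to 92.5 CPM in the allografts and 24.8 to 63.4 CPM in the naive libraries (log2 fold change 0.64, adjusted p = 0.584). Cd300c, an immunoglobulin-like receptor, had at most 0.954 CPM in any library. Klk1 and Atp1b1, highest in naive replicate 2, had log2 fold changes of -4.73 and -4.70 (adjusted p = 0.357 and 0.316). Without that library these were -1.21 and -0.87. Tlr9, the DNA sensor of plasmacytoid and B cells, had 0 counts in all 7 libraries, and Tlr7 had at most 0.432 CPM in the allografts and 2.24 CPM in naive replicate 2. Besides Bst2, 3 genes were higher in every allograft than in every naive library. Ly6d, a surface antigen of lymphoid precursors, had 24.1 to 50.7 CPM against 0 to 7.1 CPM (adjusted p = 0.638), and Pacsin1, an endocytic adaptor, had 5.81 to 11.9 CPM against 0 to 5.69 CPM (adjusted p = 0.813). Pld4, a phospholipase family exonuclease, had 34 to 36.9 CPM against 0, 17.7 and 0 CPM and was the 1 gene of this list to pass without naive replicate 2. These 3 genes and the 2 Tlr genes were chosen after their values were seen.

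**Figure D4:**
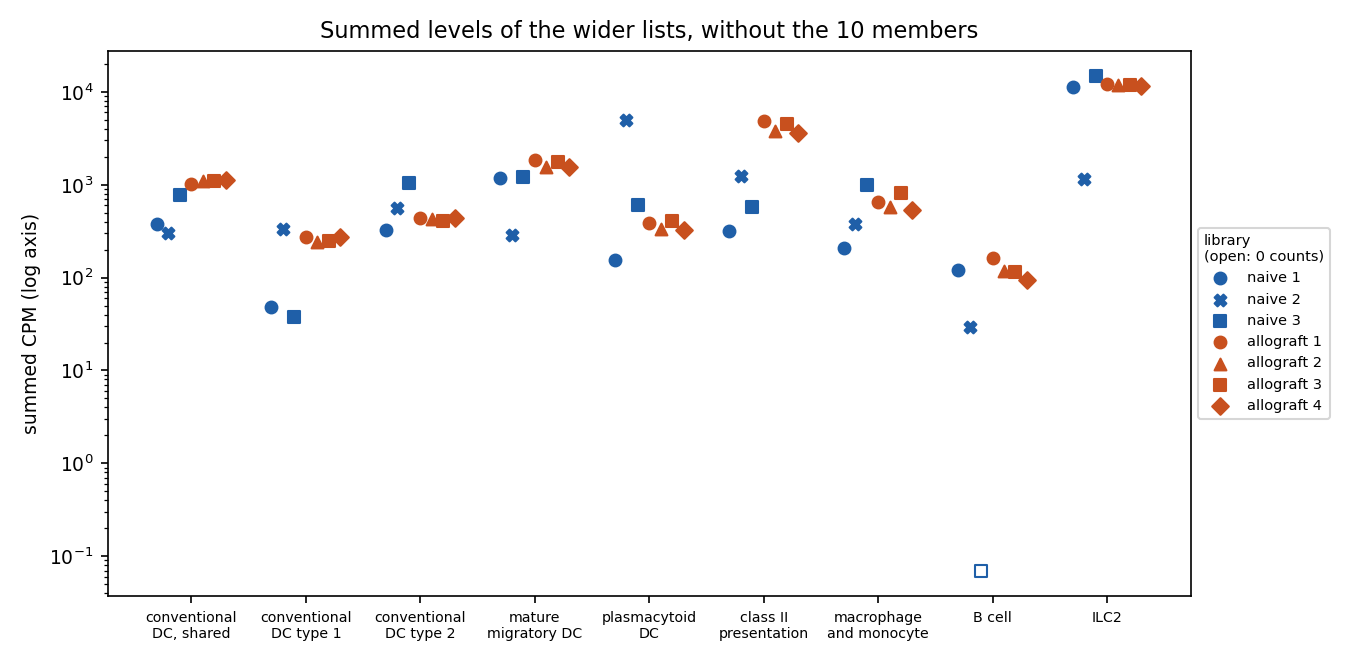
Summed CPM (log axis) of each wider list without the 10 dendritic cell genes, by library, beside class II, macrophage, B cell and ILC2 genes. Blue symbols are naive and orange allograft libraries, and an open symbol marks 0 counts, drawn at the level of 3 counts. The class II sum is higher in all 4 allografts than in all naive libraries. The plasmacytoid sum is highest in naive replicate 2, at 5010 CPM, and the ILC2 sum is lowest there.

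Ligands, receptors and subunits that pair with the members ranged from abundant to nearly absent. Csf2, which encodes GM-CSF, had 2530, 2120, 2290 and 2050 CPM in the allografts and 614, 27.0 and 3150 CPM in the naive libraries, a median of 2400 FPKM in the allografts (log2 fold change 0.78, adjusted p = 0.900). Flt3l, the ligand of Flt3, had 118 to 147 CPM in the allografts and 5.98 to 138 CPM in the naive libraries. Xcl1, the ligand of Xcr1, had 23.5 to 29.9 CPM against 0, 1.87 and 43.7 CPM. The groups overlapped for all 3, and Flt3l and Xcl1 were chosen after their values were seen. Il12rb2, the signalling subunit of the interleukin 12 receptor, had 0 counts in the naive libraries and 0.250 to 3.74 CPM in the allografts, a difference of at least 30.1-fold (adjusted p = 0.169). Il12a (adjusted p = 0.575) and Ccl21a, a CCR7 ligand at 1.34 to 13.0 CPM in the allografts (adjusted p = 0.741), did not pass. None of the 10 tested genes of this list passed without naive replicate 2 either, with 1 at an unadjusted p under 0.05 (20.2% of all genes).

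Class II genes, by which dendritic cells and activated ILC2s alike present antigen, were in sum higher in every allograft than in every naive library. Summed over 10 genes they came to 4800, 3790, 4530 and 3620 CPM in the allografts and 319, 1250 and 577 CPM in the naive libraries. Cd74, the invariant chain, had 2000, 1580, 1950 and 1610 CPM against 144, 462 and 164 CPM (log2 fold change 2.42, SE 0.65, adjusted p = 0.233). H2-DMa, which loads peptide, had a log2 fold change of 2.24 (adjusted p = 0.144) and H2-Eb1 of 2.44 (adjusted p = 0.341). In the fit that leaves out naive replicate 2, 6 of the 10 passed, with adjusted p of 0.0161 for Cd74, 0.0344 for H2-DMa and 0.0234 for H2-Eb1.

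Markers of other cells ranged widely in the allografts, from genes at 0 counts to Trbc2 at 383 to 481 CPM. The members without Cd83 summed to 101 to 127 CPM there. The 16 macrophage and monocyte genes (17 identifiers, since Itgam has 2) summed to 533 to 807 CPM in the allografts and 209 to 996 CPM in the naive libraries, with 2 to 5 identifiers at 0 in each allograft. Most of the sum in the allografts came from the chemokine receptor Ccr2, at 366, 388, 614 and 339 CPM (206, 5.74 and 514 CPM in the naive libraries), and from Lyz2. Next in the allografts were Cd68, a lysosomal protein of macrophages, at 11.7 to 27.8 CPM, and Cd14, a lipopolysaccharide coreceptor, at 9.67 to 31.5 CPM, levels that overlap those of Flt3. In the naive libraries Cd68 had 0, 14.9 and 0 CPM and Cd14 had 0, 23.2 and 10.1 CPM. Each of the other genes had at most 12 CPM in any allograft. Ccr2, Cd68 and Cd14 were chosen after their values were seen. Lyz2, lysozyme, had 122 to 191 CPM in the allografts and 2.49, 183 and 432 CPM in the naive libraries (adjusted p = 0.916). The receptor Csf1r had 0.636 to 2.78 CPM in the allografts and 0, 26.2 and 11 CPM in the naive libraries (adjusted p = 0.615). C1qb, a complement component, had 2.96 to 12.0 CPM (adjusted p = 0.815), and Mrc1, the mannose receptor, 0 to 2.78 CPM (adjusted p = 0.341). Without naive replicate 2, 3 of 15 identifiers passed (Cd68, C1qa and Ly6c2, named after their values were seen). All 3 had at most 3 counts in naive replicates 1 and 3. C1qa had 13.1 CPM in naive replicate 2, above the 1.23 to 4.06 CPM of the allografts. With all 7 libraries its log2 fold change was -1.3 (adjusted p = 0.928).

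The 10 B cell genes summed to 95.4 to 163 CPM in the allografts and to 120, 29.2 and 0 CPM in the naive libraries. Ms4a1, the CD20 antigen, had 34.1, 13.6, 25 and 23.1 CPM in the allografts and 0 counts in the naive libraries, at least 376-fold higher (adjusted p = 0.111, and 0.0234 without naive replicate 2). Pax5, the B cell transcription factor, was at 0 in all naive libraries and in allograft replicate 3 (adjusted p = 0.341), and Cd79b overlapped between the groups (adjusted p = 0.998).

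Among 10 T cell genes, which summed to 602 to 748 CPM in the allografts and 271, 27.8 and 543 CPM in the naive libraries, Cd3g had 175 to 219 CPM and Trbc2 383 to 481 CPM in the allografts, both of which ILC2s are also known to transcribe. Their adjusted p were 0.618 and 0.738, and those of Cd28 and Cd8b1 were 0.577 and 0.341. Every allograft exceeded every naive library for 4 of the 7 genes tested (Cd3g, Trbc2, Trac and Cd28), where 12.5% of all tested genes did so. Trac, the T cell receptor alpha constant gene, had 19.6, 12.5, 15.1 and 15 CPM in the allografts and 7.8, 5.06 and 10.6 CPM in the naive libraries, and Cd28 had 18.3 to 20.6 CPM against 0 to 3.1 CPM. Cd3d had 3.57 to 8.64 CPM in the allografts and up to 32.5 CPM in the naive libraries. The other 5 genes (Cd3e, Cd4, Cd8a, Cd8b1 and Cd5) had at most 1.24, 0.721, 2.25, 2.64 and 0.273 CPM in any allograft. Genes outside the naming rule are given here to account for the whole list. ILC2 genes did not pass with all 7 libraries or without naive replicate 2. The 3 with the smallest p were Thy1, Klrg1 and Areg (adjusted p = 0.790, 0.793 and 0.820), and the most abundant was Id2 (adjusted p = 0.996). The part of any of these cell types in the dendritic cell counts was not tested.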

How the data were processed

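RNA of 7 libraries of sorted ILC2s had been made into full-length amplified cDNA, per the labels' protocols. The deposited counts are whole numbers per gene, and the deposited FPKM scale them to gene length and depth. The submitters' processing notes name FastQC 0.11.5, STAR 2.5.3a, StringTie 1.3.1c, DESeq2 1.16.1 and build mm10, with no roles. Strand use and the annotation are not given in the sources used here. No molecular identifiers were used, so reads are not independent molecules.

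Sample titles gave each library's group and number. The libraries are pools that the design text calls biological replicates, so p-values measure the spread between pools. CPM are of the total count. edgeR 4.0.16 (R 4.3.3; quasi-likelihood test, TMM, filterByExpr, Benjamini-Hochberg adjustment over 17015 genes) was fitted to all 7 libraries without covariates and tested on simulated data. Where all naive libraries held at most 3 counts, the fold is a lower bound against 3 counts per library. Alternatives were DESeq2 1.42.0, its size factors, other filters, removal of mitochondrial genes, limma 3.58.1 on log2(FPKM + 0.1) and log2(FPKM + 1), a replicate block and each library left out.

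The members, lists and rules were chosen with earlier results of these data known. Named were all members and, per list, the 3 other genes with the smallest p and the 1 with the highest median FPKM in allografts. For the member of each class with the highest median FPKM over the 7 libraries, the 3 genes nearest in profile were also named. Gene overlap came from GENCODE M21. The result of 1 gene that the naming rule selects is not reported here.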

Additional observations from a re-analysis of the deposited data

Results flagged for a closer look

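Among 64 values examined in the 4 allografts (each member, each summed list and each named list gene), 3 had a single library far from the other 3, where chance gives about 1 in 20, or 3.2. Allograft replicate 1 held Cd83 at 531 CPM, while the other 3 ranged from 369 to 385 CPM. The sum of the 3 mature migratory members, most of it Cd83, came to 553 CPM there and ranged from 382 to 403 CPM elsewhere. The type 2 list without its member was lowest in allograft replicate 3 with a sum of 409 CPM, the other sums being 433 to 437 CPM.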

How the results depend on the processing

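The number of genes past the threshold was 6 with all 7 libraries. It was 1227 with DESeq2, 201 and 76 with limma on log2(FPKM + 0.1) and log2(FPKM + 1), and 0 with a replicate block (252 genes at an unadjusted p under 0.05). Leaving out each library in turn gave 0 to 560 genes, namely 107 when naive replicate 1 was dropped, 560 for naive replicate 2, 7 for naive replicate 3 and 0 for each allograft. Of list genes, 0 passed, against 16 with DESeq2, 13 and 10 with limma, 0 with the replicate block and 0 to 25 when a library was left out (3 without naive replicate 1, 25 without naive replicate 2). Deviations from the group means correlated at 0.0169, -0.0196 and 0.0360 for replicate numbers 1 to 3. With 3 naive libraries that differ this much, such values cannot tell whether the numbers pair the libraries. The causes of these shifts were not tested.

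Among the members, Cd83, Il12b, Itgax, Zbtb46, Flt3, Clec9a and Siglech kept a positive log2 fold change under all 15 alternatives. For Il12b and Itgax, at 0 counts in all 3 naive libraries, no other sign was possible. The members were also chosen with these counts in view, so the steady sign is a description only. Xcr1 ranged from -0.23 (without naive replicate 2) to 1.63 (without naive replicate 3) as single libraries were left out. Cd209a was 2.73 and 0.86 with limma at the lower and higher pseudocount, 8.28 with the replicate block and -1.12 (without naive replicate 1) to 10.94 (without naive replicate 2) when single libraries were left out, fitted values that rest on 0 counts in naive replicates 1 and 3. Fscn1 was 0.12 with limma at the lower pseudocount and 0.38 with the replicate block. Of named list genes, none of which had passed, log2 fold changes turned for Epcam (-4.18 without naive replicate 1 to 0.03 without naive replicate 2), C1qb (0.58 with limma at the lower pseudocount), Lyz2 (1.25 and 1.06 with limma, 0.18 with the block, -1.29 to 0.12 without single libraries, the latter being naive replicate 3), Id2 (0.44 with limma at either pseudocount, 0.31 with the block, -0.49 to 0.49 without single libraries) and Cd79b (-0.54 to 5.31 without single libraries). The log2 ratio of summed levels turned for the type 1 list in FPKM (-0.35), for macrophage genes in FPKM (-0.19) and when single libraries were left out (-0.10 to 1.13), and for ILC2 genes likewise (-0.14 to 0.94, the lowest without naive replicate 2).

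Depth limits the members at 0 counts to at most 3 counts, and lists are not shown to lack a change where no gene passed.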

Other observations

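The genes nearest in profile to Cd83, Xcr1 and Siglech, the member of each class with the highest median FPKM over the 7 libraries, were found by the root mean square difference of centred log2 CPM over the 7 libraries, as a description. The libraries share their depth and the odd position of naive replicate 2. For Cd83 they were Ms4a4b (0.37), Gm10552 (0.38) and Bace2 (0.40), where the median over 17014 genes was 1.88. For Xcr1 they were Slc36a3os (0.28), the adenosine receptor gene Adora2a (0.31) and the acetylcholine receptor subunit gene Chrne (0.36), with a median of 3.22. For Siglech they were Lrp12 (0.18), Cul7 (0.26) and Lins1 (0.31), with a median of 2.89. None of these 9 genes is on the dendritic cell lists used here.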
